A study of Homo sapiens with 6 samples.

Results

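The genes described here are the 6 mitochondrially encoded subunits of respiratory chain complexes III and IV and of the ATP synthase, complex V. They are MT-CYB (ENSG00000198727.2), MT-CO1 (ENSG00000198804.2), MT-CO2 (ENSG00000198712.1), MT-CO3 (ENSG00000198938.2), MT-ATP6 (ENSG00000198899.2) and MT-ATP8 (ENSG00000228253.1). They were chosen by symbol, as 6 of the 13 protein-coding genes of the mitochondrial genome and of 19669 named genes in the deposited table. All 6 had a row with a value above 0 in every library. The cells are labelled 7860, read here as 786-O, which derives from a human clear cell renal carcinoma. Levels were measured by RNA-seq and by Ribo-seq, which sequences the mRNA fragments that ribosomes shield from nuclease. The MT libraries come from cells that, per the series title, carry PHYHD1 lacking the segment 107 to 130, while the sample labels call them PHYHD1-overexpressing. The WT libraries are PHYHD1-WT cells in the title and in the column names, although the design text calls this group untreated wild type. The EV libraries come from empty-vector cells. PHYHD1 is a member of the iron- and 2-oxoglutarate-dependent dioxygenase family. The sources used here give neither the promoter of the construct nor whether the lines are single clones, and the PHYHD1 allele cannot be seen in values per gene.

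Each label had 1 RNA-seq and 1 Ribo-seq library, 6 in all, so that no difference has a replicate check and no p-value can be given. All comparisons below are between libraries. PHYHD1 mRNA stood at 109.5 FPKM in MT, 118 FPKM in WT and 0.092 FPKM in EV, and in Ribo-seq at 905 TPM in MT, 222 TPM in WT and 0 in EV, so the library labelled WT holds abundant PHYHD1. FPKM is a read count scaled by gene length and library size, and TPM is a length-scaled value that sums to 1000000 in a library. Of 8 markers of this line, among them PAX8, VIM and KRT18, all were at 1 unit or more in all 6 libraries. Of 8 markers of blood, endothelium, fibroblasts, liver and kidney tubule, 5 to 7 were listed at 0 in each library, and the one that reached 1 unit was COL1A1. The markers of the line summed to between 2267 and 2436 FPKM and between 2176 and 2239 TPM, and those of other cells to between 0.449 and 1.62 FPKM and between 0.755 and 1.61 TPM.

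The mitochondrial genome is transcribed into long precursors that are cut into separate mRNAs, and these are translated inside the organelle by mitochondrial ribosomes. The proteins are inserted into the inner membrane and assembled there with subunits encoded in the nucleus, made on cytosolic ribosomes and imported. Cytochrome b (MT-CYB) is the part of complex III that passes electrons from ubiquinol on. MT-CO1, MT-CO2 and MT-CO3 form the core of cytochrome c oxidase, which reduces oxygen. MT-ATP6 forms part of the proton channel of the ATP synthase, and MT-ATP8 is a small membrane subunit next to it. MT-ATP8 and MT-ATP6 lie on one shared mRNA with overlapping reading frames, which share 46 bases in the RefSeq annotation of GRCh38.p14. That is 22.2% of the 207 bases of MT-ATP8 and 6.75% of the 681 bases of MT-ATP6. Without knowing how reads in the overlap were counted, the 2 values cannot be fully told apart. Cycloheximide, which was used to hold ribosomes in place, acts on cytosolic and not on mitochondrial ribosomes.

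At the mRNA level 4 of the 6 genes were near the top of every library. MT-CO1 stood at 11099 FPKM in MT, 11039 FPKM in WT and 12177 FPKM in EV. MT-CO2, the subunit that takes electrons from cytochrome c, stood at 10219 FPKM in MT, 9865 FPKM in WT and 12400 FPKM in EV. MT-CO3 was at 10457 FPKM in MT, 9653 FPKM in WT and 10760 FPKM in EV. These genes and MT-ATP6, at 9623 FPKM in MT, 9611 FPKM in WT and 11306 FPKM in EV, held the first 4 ranks of all genes in each RNA-seq library. Their order among themselves was not the same in each. MT-CO1 ranked 1 in MT and WT and 2 in EV, where MT-CO2 ranked 1.

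MT-CYB and MT-ATP8 had lower mRNA values. MT-CYB stood at 3719 FPKM in MT, 3471 FPKM in WT and 4165 FPKM in EV, which gave it rank 8, 8 and 7. MT-ATP8 stood at 1284 FPKM in MT, 1447 FPKM in WT and 1796 FPKM in EV, with rank 28, 22 and 15. On this per-length scale MT-ATP8 was 0.133 times MT-ATP6 in MT, 0.151 times in WT and 0.159 times in EV, although both are read from 1 mRNA. MT-ND4L and MT-ND4, the other pair on a shared mRNA, stood in a ratio of 0.216 in MT, 0.190 in WT and 0.254 in EV. In both pairs the shorter, upstream frame therefore had the lower FPKM. Together the 6 genes made up 10.04% of the summed FPKM in MT, 9.80% in WT and 11.2% in EV.

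**Figure D1:**
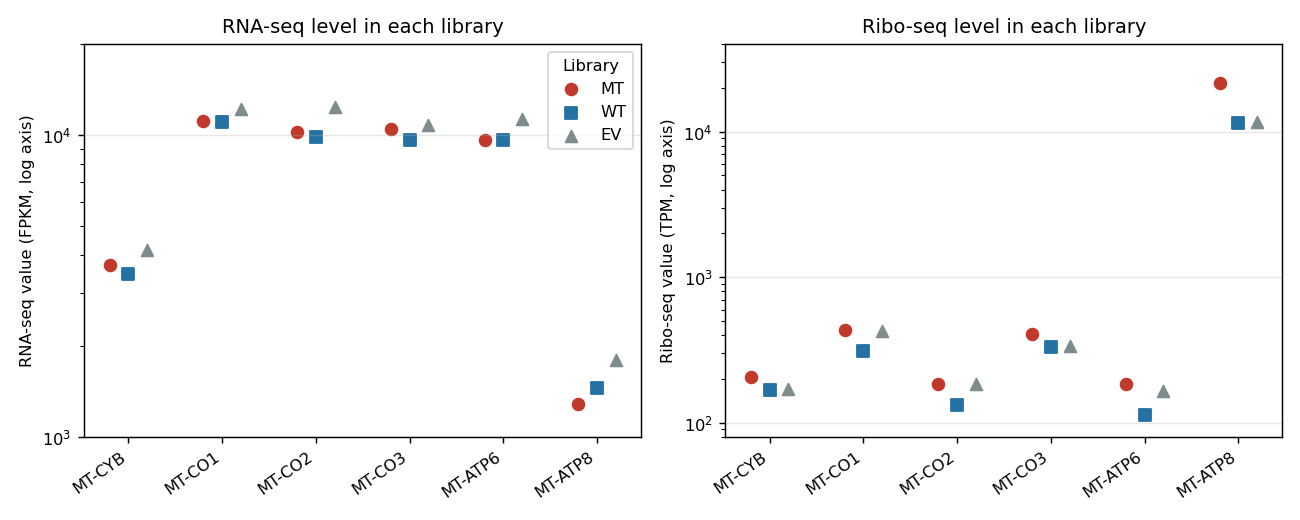
RNA-seq level in FPKM (left) and Ribo-seq level in TPM (right) of the 6 genes on log axes, 1 point per library with MT, WT and EV side by side. MT-ATP8 has the lowest mRNA value and, at 11487 to 21537 TPM, the highest Ribo-seq value.

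The order was different in Ribo-seq, where MT-ATP8 stood far above the rest. Its Ribo-seq value was 21537 TPM in MT, 11487 TPM in WT and 11621 TPM in EV. It ranked 1 of all genes in MT, 2 in WT and 3 in EV. Beta-actin (ACTB) stood at 10930 TPM in MT, 9676 TPM in WT and 12118 TPM in EV, so that MT-ATP8 was near it in WT and EV and well above it in MT. The MT library is the high one, and WT and EV lie close together.

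The other 5 genes lay between 113 and 431 TPM. MT-CO1 stood at 431 TPM in MT, 309.9 TPM in WT and 429 TPM in EV. MT-CO3 stood at 405 TPM in MT, 329 TPM in WT and 338 TPM in EV. For MT-CO1 the WT library is the low one, whereas for MT-CO3 the MT library is the high one. MT-CO2 had 185 TPM in MT, 133 TPM in WT and 186 TPM in EV, and MT-ATP6 had 184 TPM in MT, 113 TPM in WT and 166 TPM in EV. MT-CYB had 206 TPM in MT, 167 TPM in WT and 169.96 TPM in EV. MT-CO1 and MT-CO3 were the upper 2 of these 5 in every library, MT-ATP6 was the lowest in each, and MT-CO2 and MT-CYB changed places between EV and the other libraries. In MT, MT-ATP6 and MT-CO2 differed by about 1 TPM, so their order there is not a separation.

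Divided by the RNA-seq value, the Ribo-seq value was very low for 5 of the 6 genes. Over the 6356 to 6372 genes at 10 FPKM or more the median ratio was 1.10 in MT, 1.12 in WT and 1.10 in EV. MT-CYB, MT-CO1, MT-CO2, MT-CO3 and MT-ATP6 lay between 0.0181 and 0.0553 in MT, between 0.0118 and 0.048 in WT and between 0.0147 and 0.0408 in EV. In each library at most 1.04% of genes had a lower ratio than any of these 5. MT-CYB had the highest of the 5 ratios and MT-CO2 and MT-ATP6 the lowest 2 in all 3 labels. The near-equal mRNA values of the cytochrome c oxidase core genes thus did not carry over, since in EV MT-CO1 had a ratio of 0.0353, MT-CO3 of 0.0314 and MT-CO2 of 0.015.

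MT-ATP8 had a ratio of 16.8 in MT, 7.94 in WT and 6.47 in EV, higher than that of 99.3%, 97.3% and 96.1% of genes. This was 878 times the ratio of MT-ATP6 in MT, 675 times in WT and 440.4 times in EV. Part of each multiple lies in the lower FPKM of MT-ATP8, although both frames are on 1 mRNA. In Ribo-seq values alone MT-ATP8 was 117.2 times MT-ATP6 in MT, 101.6 times in WT and 69.97 times in EV. The next shortest frames had ratios far below that of MT-ATP8. MT-ND4L, at 297 bases, had 0.0552 in MT, 0.0556 in WT and 0.0351 in EV, and MT-ND3, at 346 bases, had 0.0902 in MT, 0.0618 in WT and 0.0695 in EV. The ratio of MT-ND4L was 2.37 times that of MT-ND4 in MT, 2.48 times in WT and 1.68 times in EV. The 7 mitochondrially encoded complex I subunits lay between 0.0125 and 0.136 in MT, between 0.0179 and 0.147 in WT and between 0.0158 and 0.0959 in EV, which overlaps the 5 genes above.

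**Figure D2:**
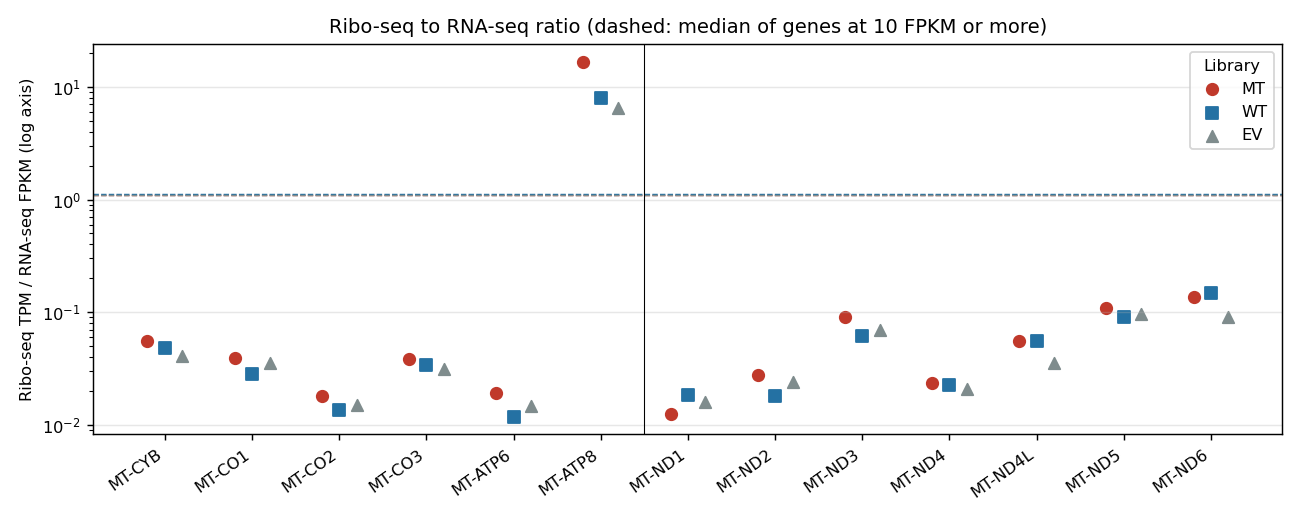
Ribo-seq TPM divided by RNA-seq FPKM on a log axis for the 6 genes (left of the line) and the 7 mitochondrially encoded complex I genes (right), 1 point per library. Dashed lines mark the median of genes at 10 FPKM or more, 1.10 to 1.12, above which MT-ATP8 is the single one of the 13.

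Weighting each value by gene length makes it proportional to the number of reads, if the annotated length was the one used for scaling. On that scale MT-ATP8 took 64.4% of the Ribo-seq reads on the 13 mitochondrial genes in MT, 55.05% in WT and 50.8% in EV. In RNA-seq it took 0.382% in MT, 0.438% in WT and 0.486% in EV. The positions these reads map to cannot be seen in values per gene, so their spread over the MT-ATP8 frame was not tested. MT-CO1 took the largest share of the RNA-seq reads, 24.6% in MT, 24.9% in WT and 24.6% in EV. In Ribo-seq MT-CO1 came second with 9.62% in MT, 11.1% in WT and 14.0% in EV. On the deposited TPM scale, which is per length, MT-ATP8 was 90.1% of the 13 genes in MT, 86.1% in WT and 84.1% in EV. With MT-ATP8 left out, the other 5 genes held 59.5% of the remaining 12 genes' TPM in MT, 56.5% in WT and 58.8% in EV, against 64.7%, 64.3% and 65.9% of FPKM in those labels.

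**Figure D3:**
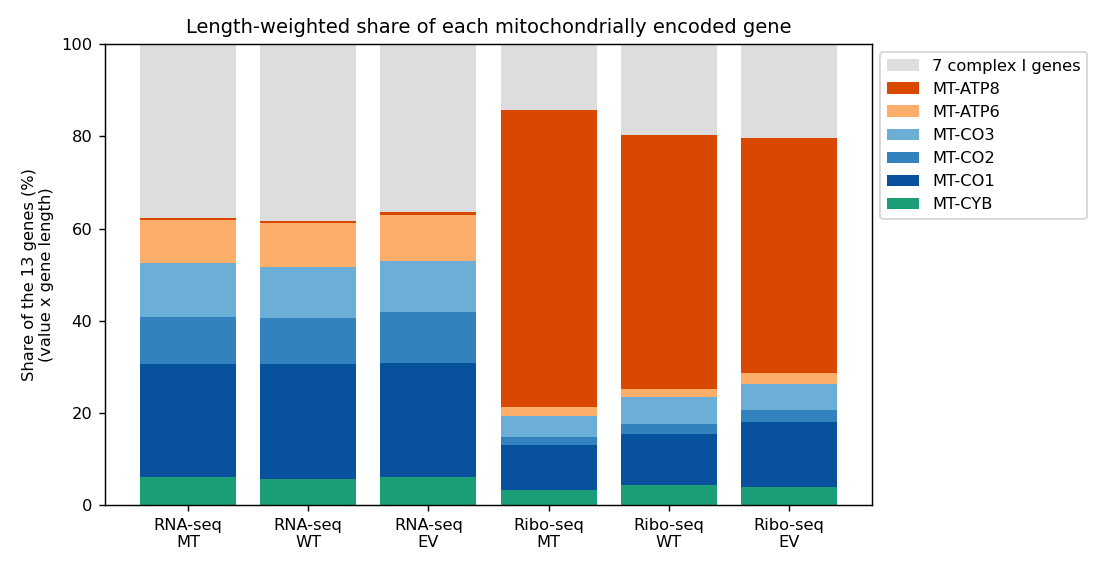
Share in percent of each of the 6 genes, and of the 7 complex I genes together, in the summed value times gene length of all 13 mitochondrially encoded genes, 1 stacked bar per library. MT-ATP8 fills 50.8% to 64.4% of the Ribo-seq bars and 0.382% to 0.486% of the RNA-seq bars.

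The design asks what differs between cells with the PHYHD1 form of the MT label or of the WT label and empty-vector cells, and between these PHYHD1 forms. A gene was counted as past the fold rule at an absolute difference of 1 or more in log2(value + 1), that is a 2-fold difference. For the members, which are all far above 1 unit, the added 1 hardly alters the difference.

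In RNA-seq none of the 6 genes passed the fold rule in MT over EV, where 0.29% of 11016 genes did, or in WT over EV, where 0.499% of 11032 did. All 6 differences were nevertheless below 0 in both comparisons, which share the EV library. In MT over EV they ran from -0.48 (MT-ATP8) to -0.04 (MT-CO3), with a median of -0.20, and over all genes the median was -0.01. In WT over EV they ran from -0.33 (MT-CO2) to -0.14 (MT-CO1), with a median of -0.25 and a median over all genes of -0.01. Genes at 100 FPKM or more in both libraries had a robust SD across genes of 0.10 and 0.12 in these comparisons, which mixes real differences with error. Of 668 such genes in MT over EV, 1 had a lower difference than MT-ATP8, namely PSAT1, and 1.5% had a lower one than MT-CO2. In WT over EV 3.02% of 662 genes had a lower difference than MT-CO2 and 13.4% had a lower one than MT-CO1.

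The summed FPKM of the 6 genes was 46401 in MT, 45086 in WT and 52605 in EV. Outside the mitochondrial genome the named genes summed to 390053 FPKM in MT, 389339 FPKM in WT and 389713 FPKM in EV, so the nuclear total was nearly the same in the 3 libraries. The complex I genes had medians of -0.27 in MT over EV and -0.24 in WT over EV, with MT-ND1 at 0.08 and -0.10 and MT-ND2 at 0.03 and 0.02. In bulk RNA, less of these mRNAs per cell and fewer cells that carry them cannot be told apart.

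Between MT and WT the mRNA values were close. None of the 6 passed the rule, against 0.508% of 11013 genes, and the differences lay between -0.17 (MT-ATP8) and 0.12 (MT-CO3) with a median of 0.03. MT-ATP6 and MT-CO1 differed by 0.00 and 0.01. MT-ATP8 was the single member below 0, and 7.66% of 666 genes at 100 FPKM or more had a lower difference.

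**Figure D4:**
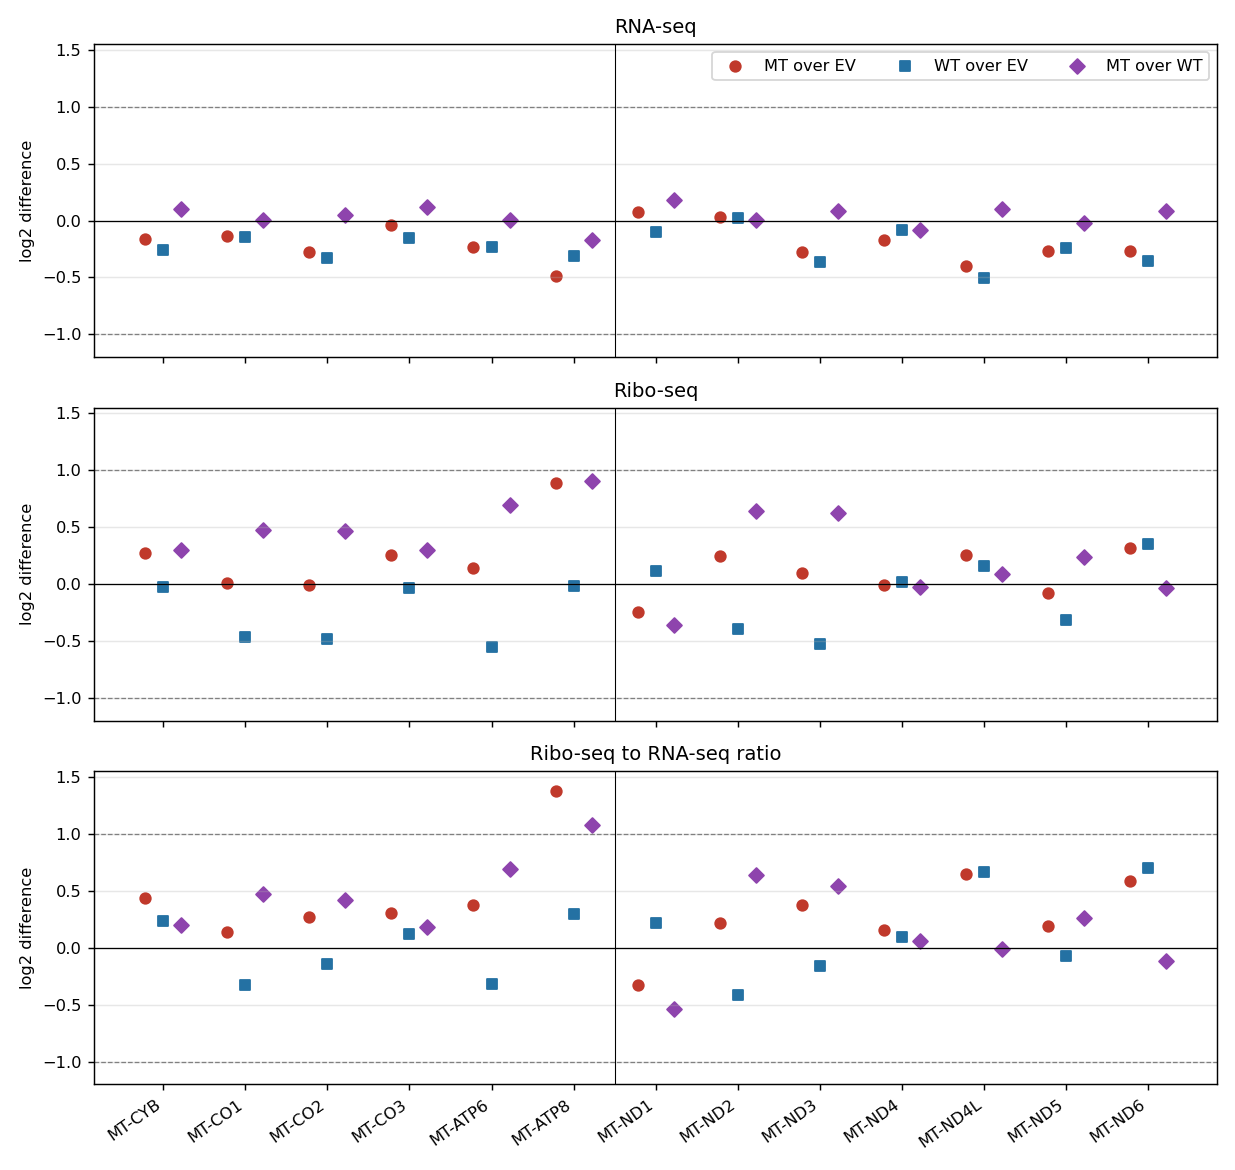
Log2 difference of the 6 genes (left of the line) and the 7 mitochondrially encoded complex I genes (right) in RNA-seq, Ribo-seq and their ratio, 1 point per comparison. Dashed lines mark the fold rule at -1 and 1, which MT-ATP8 passes in the ratio at 1.37 in MT over EV and 1.08 in MT over WT.

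In Ribo-seq too no member passed the rule in MT over EV, where 2.83% of 10737 genes did. MT-ATP8 came closest at 0.89, or 1.85 times the EV value, and 0 of the 1426 genes at 100 TPM or more in both libraries had a higher difference. MT-CYB at 0.27 and MT-CO3 at 0.26 followed, and 4.0% and 4.84% of those genes had a higher difference. Genes that rose from under 100 TPM, such as PHYHD1 at 0 TPM in EV, are not among the 1426. MT-ATP6 stood at 0.14, MT-CO1 at 0.01 and MT-CO2 at -0.01. The median of the 6 was 0.20, beside 0.01 over all genes. The robust SD across genes at 100 TPM or more was 0.14.

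In WT over EV 3 of the 6 genes stood apart from the other 3. MT-CO1, MT-CO2 and MT-ATP6 had differences of -0.47, -0.48 and -0.55, or 0.722, 0.716 and 0.681 times the EV value. MT-CYB, MT-CO3 and MT-ATP8 had -0.03, -0.04 and -0.02. None passed the rule, against 3.36% of 10700 genes. Of 1396 genes at 100 TPM or more, 1.93%, 1.79% and 1.15% had a lower difference than MT-CO1, MT-CO2 and MT-ATP6, and the robust SD was 0.20. Among the complex I genes MT-ND3 at -0.53, MT-ND2 at -0.39 and MT-ND5 at -0.32 were also low, while MT-ND6 at 0.35 and MT-ND4L at 0.16 were not. Among genes with low Ribo-seq values in both libraries, the most common ratio to the EV value was 1.28 in WT and 0.946 in MT. It was shared by 28 of 184 such genes in WT and 30 of 154 in MT. Taken as the relative worth of 1 read, this makes WT the coarsest of the 3. The part of such coarseness in the WT differences was not tested.

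In MT over WT all 6 Ribo-seq differences lay above 0. They were 0.91 for MT-ATP8, 0.70 for MT-ATP6, 0.48 for MT-CO1, 0.47 for MT-CO2 and 0.30 for both MT-CYB and MT-CO3. The median was 0.47, beside -0.01 over all genes. None of the 6 passed the rule, against 3.19% of 10752 genes. Of 1414 genes at 100 TPM or more 2 had a higher difference than MT-ATP8, namely PHYHD1 and the histone gene H3C11, and 0.424% had a higher one than MT-ATP6. For MT-CYB and MT-CO3 the share was 5.87% and 5.94%. The 7 complex I genes ran from -0.36 (MT-ND1) to 0.64 (MT-ND2) with a median of 0.09 and 4 above 0.

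The Ribo-seq over RNA-seq ratio, often called translational efficiency, was compared as the Ribo-seq log2 difference minus the RNA-seq one. This takes libraries of one label in the 2 assays as matched. The ratio rests on values per gene and does not show where in a frame, such as that of MT-ATP8, the reads lie. In MT over EV 1 of the 6 genes passed the rule, MT-ATP8 at 1.37, and 3.51% of 10331 genes did (2.19% upward). MT-CYB followed at 0.44, MT-ATP6 at 0.38, MT-CO3 at 0.30, MT-CO2 at 0.27 and MT-CO1 at 0.14, so that all 6 were above 0. The median was 0.34, beside 0.02 over all genes. Of 575 genes at 100 units or more in all 4 libraries, 0 had a higher difference than MT-ATP8. PHYHD1, at 0.092 FPKM in EV, is not among these genes.

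In WT over EV the ratio differences were 3 above and 3 below 0, and none passed, against 4.21% of 10335 genes. They were 0.30 for MT-ATP8, 0.24 for MT-CYB, 0.12 for MT-CO3, -0.15 for MT-CO2, -0.32 for MT-ATP6 and -0.33 for MT-CO1. In MT over WT MT-ATP8 passed at 1.08, where 4.82% of 10352 genes did (2.49% upward), and PHYHD1 and MT2A were the 2 of 578 genes at 100 units with a higher difference. MT-ATP6 at 0.69, MT-CO1 at 0.47, MT-CO2 at 0.42, MT-CYB at 0.20 and MT-CO3 at 0.18 completed the set, and the median was 0.44 beside -0.01 over all genes. If the WT and MT labels were exchanged in Ribo-seq, MT-ATP8 would stand at -0.73 in MT over WT and at 0.47 in MT over EV.

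Since the MT-ATP8 and MT-ATP6 frames overlap, the pair was also taken as 1 unit by length. The combined value was 5443 TPM in MT, 2915 TPM in WT and 2991 TPM in EV, and 8099 FPKM in MT, 8129 FPKM in WT and 9586 FPKM in EV. The combined Ribo-seq difference was 0.86 in MT over EV, -0.04 in WT over EV and 0.90 in MT over WT. For the ratio it was 1.11 in MT over EV and 0.91 in MT over WT, the second of which is under the rule.

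The nuclear-encoded partners of these complexes had Ribo-seq differences around 0. In MT over WT 0 of 9 complex III subunits, 0 of 11 complex IV subunits and 0 of 18 complex V subunits passed the rule in Ribo-seq, beside 3.19% of all genes, a share at which lists this short hold few or no calls. That share covers all genes at 1 TPM or more, whereas these subunits lay above 100 TPM in every library. Of 1414 genes at 100 TPM or more, 2 had a difference above 0.91, so upward calls are rarer at that level. The medians of the complex III, IV and V subunits were -0.05, 0.00 and -0.06. They ran from -0.41 (ATP5F1A, the alpha subunit of the ATP synthase) to 0.31 (COX8A, a small complex IV subunit). Of the 6 mitochondrially encoded genes 2 lay within that range, MT-CYB and MT-CO3 at 0.30 each. In RNA-seq the same medians were 0.07, 0.19 and 0.06.

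**Figure D5:**
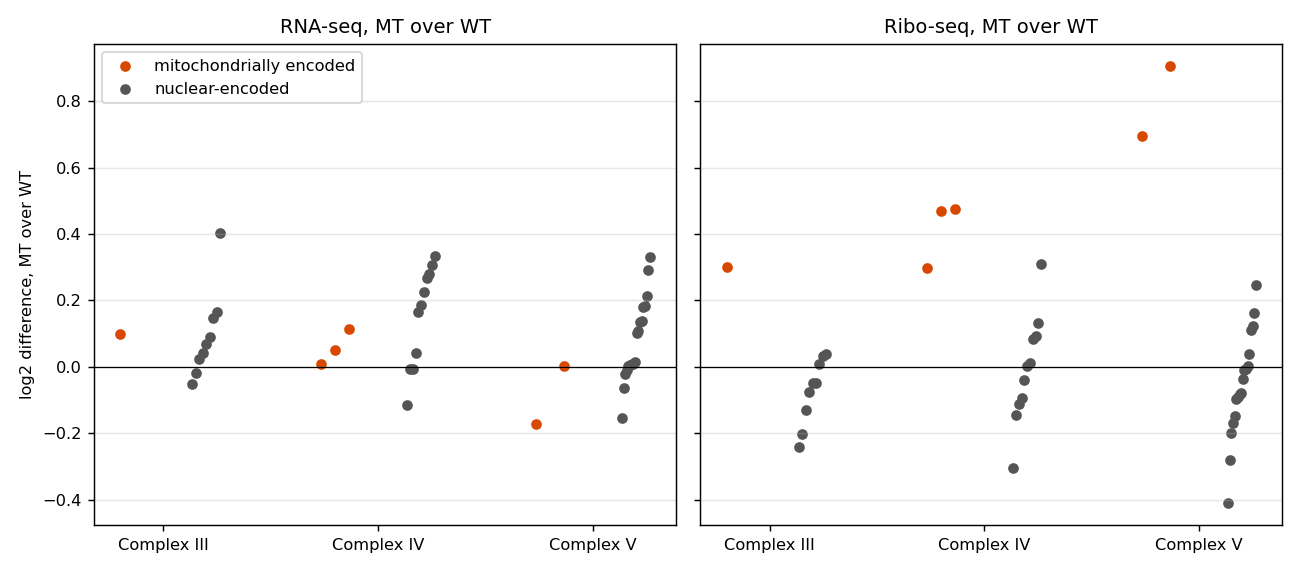
Log2 difference of MT over WT in RNA-seq (left) and Ribo-seq (right) for mitochondrially encoded (orange) and nuclear-encoded (grey) subunits of complexes III, IV and V, 1 point per gene, sorted within each set. In Ribo-seq the mitochondrially encoded points lie at 0.30 to 0.91 and the nuclear-encoded ones at -0.41 to 0.31.

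Against EV, too, 0 of the 38 nuclear-encoded subunits passed the rule in either assay in MT or WT. Of all genes 0.29% and 0.499% passed in RNA-seq and 2.83% and 3.36% in Ribo-seq in MT and WT over EV, shares at which a list of this size holds few or no calls. These shares include genes at far lower levels than the subunits. The 11 complex IV subunits were all below 0 in RNA-seq in WT over EV, with a median of -0.24, and ran from -0.63 (COX7B) to -0.05 (COX6A1). That median is near the -0.25 of the 6 mitochondrially encoded genes. In MT over EV it was -0.10, with 3 of 11 above 0. The complex III and V lists had RNA-seq medians of -0.01 and 0.01 in MT over EV and of -0.11 and -0.02 in WT over EV. In Ribo-seq the medians of complexes III, IV and V were 0.06, -0.06 and 0.02 in MT over EV and 0.16, -0.07 and 0.05 in WT over EV.

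Nuclear-encoded subunits had far higher Ribo-seq over RNA-seq ratios than the 5 low genes. The median ratio of the complex V list was 5.67 in MT, 5.91 in WT and 5.43 in EV, and that of the complex IV list was 10.5, 12.8 and 11.0 in those labels. The lowest ratio in the complex III list was 1.11 in MT, 1.10 in WT and 1.05 in EV, near the median of all genes. Cytosolic ribosomes make these subunits, and cycloheximide acts on those and not on mitochondrial ribosomes. The part of this in the contrast was not tested. ATP5F1E, the small epsilon subunit, had 89.1 in MT, 110.5 in WT and 99.8 in EV, which is above MT-ATP8. Against ATP5F1B, the catalytic beta subunit, at 514 TPM in MT, 516 TPM in WT and 508 TPM in EV, MT-ATP6 was at 184, 113 and 166 TPM in those labels. The mRNA of ATP5F1B was 298 FPKM in MT, 311 FPKM in WT and 297 FPKM in EV.

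Genes that assemble these complexes or serve mitochondrial gene expression were counted by the same rule. In the RNA-seq comparisons with EV, where 0.29% (MT) and 0.499% (WT) of all genes passed, the 1 such gene was PTCD3, which belongs to the small subunit of the mitochondrial ribosome, among 16 translation factors. It stood at 90.02 FPKM in MT, 113 FPKM in WT and 31.9 FPKM in EV, with log2 differences of 1.47 and 1.79 over EV. Its Ribo-seq value was 25.7 TPM in MT, 29.9 TPM in WT and 27.0 TPM in EV. The mRNA thus rose by the rule in both labels and the footprint value did not, so that its ratio fell by 1.53 in MT over EV and by 1.64 in WT over EV on the log2 scale.

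PET100, a complex IV assembly factor, fell in RNA-seq in MT over WT by 1.02 on the log2 scale, at 3.90 FPKM in MT, 8.92 FPKM in WT and 7.84 FPKM in EV. It had 805 TPM in MT, 629 TPM in WT and 598 TPM in EV, so that its ratio rose by 1.28 in MT over EV and 1.37 in MT over WT. No other complex IV assembly factor of the 21 listed, 20 of them measured in Ribo-seq, passed in any comparison. Of all genes 0.508% passed in RNA-seq in MT over WT. In the ratio 3.51% passed in MT over EV and 4.82% in MT over WT. At these shares a list of this length holds few or no calls. PET100 mRNA lay below the higher minimum tried below, at which 15 genes and not 56 passed in RNA-seq in MT over WT. MTERF1, a factor that ends mitochondrial transcription, rose in Ribo-seq in WT over EV (1.04), at 11.7 TPM in MT, 12.3 TPM in WT and 5.44 TPM in EV. In Ribo-seq no other gene of the assembly, transcription, RNA processing, translation factor and mitochondrial ribosomal protein lists passed in any of the 3 comparisons, beside 2.83% of all genes in MT over EV, 3.36% in WT over EV and 3.19% in MT over WT. In the ratio MTERF1 rose (1.14) and PTCD2, an RNA processing factor, fell by 1.01 in MT over EV, where 3.51% of all genes passed. FASTKD4 was found under its other name, TBRG4.

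LRPPRC and SLIRP form a complex that keeps mitochondrial mRNAs stable. LRPPRC mRNA was 59.6 FPKM in MT, 67.3 FPKM in WT and 62.9 FPKM in EV, and its Ribo-seq value 44.8 TPM in MT, 61.5 TPM in WT and 48.4 TPM in EV. SLIRP stood at 15.2 FPKM in MT, 16.7 FPKM in WT and 14.3 FPKM in EV, and at 1156 TPM in MT, 929.9 TPM in WT and 1030 TPM in EV. TACO1, a translational activator of MT-CO1, stood at 18.6 FPKM in MT, 18.5 FPKM in WT and 14.8 FPKM in EV, and at 29.5 TPM in MT, 32.5 TPM in WT and 30.2 TPM in EV. In Ribo-seq the WT library has the highest value of LRPPRC and the lowest of SLIRP. The RNA-seq medians of the 48 large-subunit and 31 small-subunit mitochondrial ribosomal protein genes were 0.03 and -0.03 in MT over EV and 0.08 and 0.04 in WT over EV.

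Likeness of pattern was measured as the Euclidean distance between log2(value + 1) profiles over the 6 libraries, centred within each assay. It covered 5430 nuclear genes at 10 units or more in at least 1 library of each assay. The genes nearest the median profile of the 6 members were ASPHD1 (distance 0.10), NSMCE2 (0.12) and DUSP22 (0.12), beside a median distance of 0.50. NSMCE2 stood at 28.9 FPKM in MT, 27.8 FPKM in WT and 34.6 FPKM in EV, and at 94.7 TPM in MT, 69.7 TPM in WT and 92.9 TPM in EV. Of the complex I genes MT-ND3 (0.17) was the nearest and MT-ND1 (0.65) the farthest. The member farthest from this profile was MT-ATP8 (0.56).

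For MT-ATP8 the nearest nuclear genes were GALK2 (0.17), TUBGCP4 (0.25) and NADK (0.26), and the median distance was 0.85. GALK2 stood at 9.30 FPKM in MT, 10.6 FPKM in WT and 11.8 FPKM in EV, and at 20.0 TPM in MT, 11.2 TPM in WT and 11.3 TPM in EV. NADK, which makes NADP, had 18.5 FPKM in MT, 22.0 FPKM in WT and 22.7 FPKM in EV, and 12.5 TPM in MT, 5.14 TPM in WT and 5.62 TPM in EV. Since the genes were picked by this likeness, a highest Ribo-seq value and a low mRNA value in MT follow from the choice. TUBGCP4 mRNA stood at 11.9 FPKM in MT and 11.8 FPKM in WT. MT-ATP6, which shares its mRNA with MT-ATP8, was at a distance of 0.57.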

How the data were processed

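One deposited table with 20307 rows and 1 column per library was used. Per the labels' protocols, total RNA came from a TRIzol extraction. For Ribo-seq, cells received cycloheximide, lysates were digested with RNase I, and antisense probes took out ribosomal RNA. NEBNext kits served for both library types. The submitters' processing notes name hg18 as genome build; the sources used here give no aligner, counter or annotation, and no coordinates are printed. The 3 dishes that the design text gives each condition may or may not have been pooled. The file headers give no unit. The deposited RNA-seq columns were read as FPKM, since they sum to between 459938 and 469859, and TPM over more genes is possible. The deposited Ribo-seq columns were read as TPM, since each sums to 1000000. Read totals are unknown; genes above 0 in a single library had medians of 0.038 to 0.046 FPKM and 0.118 to 0.148 TPM, far under every member value.

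Left out were 605 rows without a name and 7 symbols whose repeated rows disagreed, which leaves 19669 genes. The 8 listed nuclear pseudogenes of the members have no row among them, so reads shared with such copies could not be examined. Deposited values were taken without rescaling and compared as log2(value + 1). A gene was measured at 1 unit or more in 1 library compared (for the ratio, in 1 library of each assay) and counted at an absolute difference of 1 or more. With 1 library per label and assay no test was possible. Gene lengths are from RefSeq (GRCh38.p14). The named genes are the members, the complex I genes, PHYHD1, ACTB, GAPDH, list members past the rule at 10 units or otherwise abundant ones, and the 3 nearest profiles; ATP5F1A, ATP5F1B, COX8A, COX7B, COX6A1, ATP5F1E, PET100, LRPPRC, SLIRP, TACO1, PSAT1, H3C11 and MT2A were added after values were seen. The members and lists were chosen with earlier results of these data known. Python 3.11.15, pandas 2.3.3 and numpy 2.4.6 were used. Alternatives were the pseudocount, 2 rescalings, the minimum, exchanged labels, MT-ATP8 left out and the overlapping pair combined.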

Additional observations from a re-analysis of the deposited data

How the results depend on the processing

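With a pseudocount of 0.01, after subtracting the median difference of genes at 10 units or more, and after rescaling to the genes outside the mitochondrial genome, all 54 member differences stayed on their side of the fold rule, moved by at most 0.03 and kept their sign, except 2 values near 0 that changed sign under the last. Leaving out MT-ATP8, partly an alternative chosen after seeing the data, moved the median difference of Ribo-seq WT over EV to -0.47. It moved the log2 difference of the members' summed TPM, which was 0.83 in MT over EV, -0.04 in WT over EV and 0.87 in MT over WT, to 0.13, -0.29 and 0.42. With the MT and WT labels exchanged in Ribo-seq the median ratio difference became -0.10 in MT over EV, 0.40 in WT over EV and -0.50 in MT over WT, and that of MT-ATP8 in MT over WT became -0.73; this follows from the exchange itself. For MT-ATP8 and MT-ATP6 combined, the ratio difference was 0.91 in MT over WT, under the rule that MT-ATP8 alone passes, and 1.11 in MT over EV, past the rule that MT-ATP6 alone does not reach. With the exchange above, MT-ATP8 stood at 0.47 in MT over EV and at 1.20 in WT over EV. A minimum of 10 units leaves fewer genes tested, and the counts of genes past the rule were 9, 15 and 15 in RNA-seq (MT over EV, WT over EV and MT over WT), 85, 90 and 101 in Ribo-seq and 65, 83 and 101 for the ratio, against 32, 55 and 56, then 304, 359 and 343, and then 363, 435 and 499. The number tested at that minimum was not recorded, so a change in the share passing cannot be read from these counts. No paired analysis was possible because each label has 1 library per assay and the labels carry no replicate numbers. Without replicates or read totals, no error can be set on any member's difference.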
